A study of Arabidopsis thaliana with 4 samples.

Results

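The change of association with large polysomes under hypoxia was followed across nuclear genes of Arabidopsis thaliana. Large polysomes are mRNAs that carry many ribosomes, and the change is the log2 ratio of large-polysome to total RNA signal in hypoxic seedlings minus the same ratio in control seedlings. A probe set was taken as a member when its annotation gave 1 nuclear gene and its intensity was above 140 on all 4 arrays. Of 13367 probe sets of nuclear genes, 5773 were members (43.2%), and they stood for 5743 genes. A further 5517 were not above the threshold on any array, and 2077 were above it on some arrays and not on others. The array held 22746 probe sets that were not controls.

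All seedlings were wild-type plants of the Ler accession, 7 d old and kept under low light, and nothing in the labels gives a transgene or mutation. The 4 groups were total RNA of non-stressed (control) seedlings, total RNA after 12 h of hypoxia, large-polysome RNA of control seedlings at 12 h, and large-polysome RNA after 12 h of hypoxia. Each group was 1 Affymetrix ATH1 array, an oligonucleotide array with several short probes for each transcript, so no difference has a replicate check and no p-value was computed. The labels state a time for every group but the control total RNA, and a gap in sampling time between the control arrays cannot be told apart from a difference between fractions.

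Most eukaryotic mRNAs are read by several ribosomes at once, and an mRNA that moves out of large polysomes is held in smaller polysomes or in particles without ribosomes. Protein synthesis is among the largest consumers of ATP in a plant cell, and low oxygen, which limits respiration, is known to lower ribosome loading of many mRNAs while mRNAs of the hypoxia response stay loaded. mRNAs for ribosomal proteins are often regulated together at translation in plants. The ratio used here is a position in the gradient relative to the average mRNA, not a rate of protein synthesis.

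The arrays had been scaled to a common mean, so a shift of all mRNAs out of polysomes cannot be seen. Each change below is therefore a log2 value relative to the median member, whose uncentred change was -0.02. Between 48.7% and 53.7% of nuclear probe sets were above the threshold on an array. The actin control probe sets gave a 3'/5' signal ratio of 1.39 (control) and 1.22 (hypoxia) on the total RNA arrays, against 2.45 and 2.15 on the large-polysome arrays. An older actin probe set pair gave 5.46 (control) and 5.53 (hypoxia) on total RNA, against 10.9 and 7.34 on large polysomes. The part of these differences in the results was not tested.

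The spread of association was narrower on the hypoxia arrays than on the control arrays. The SD of the log2 ratio of large-polysome to total RNA over the 5773 members was 0.49 in control and 0.42 in hypoxia. In control, 108 members had a large-polysome signal at least 2 times that of total RNA and 144 were as far below it, against 45 and 64 in hypoxia. Each spread comes from 1 pair of arrays and includes array and probe error. The part of hypoxia in the difference was not tested. The change itself had an SD of 0.48, its 5th and 95th percentiles were -0.75 and 0.81, and it ranged from -2.25 to 3.92.

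A gain of at least 2-fold was measured for 154 members, 2.67% of all, and a loss of at least 2-fold for 98, or 1.7%. At 1.5-fold the counts were 634 gains (11%) and 572 losses (9.91%). The members that gained 2-fold had a median log2 large-polysome to total ratio of -0.77 in control and 0.41 in hypoxia, and 148 of the 154 were below 0 in control. Those that lost 2-fold went from 0.79 to -0.44, and 93 of the 98 were above 0 in control. The control ratio enters the change with a minus sign, so error in a control array moves it and the change in opposite directions.

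In total RNA, 5008 of the 5773 members (86.7%) were within 2-fold of control and 442 (7.66%) were at least 2-fold lower in hypoxia. Of the 154 that gained association, 107 (69.5%) were within 2-fold of control in total RNA, 37 (24.0%) were at least 2-fold lower and 10 at least 2-fold higher. Their median log2 ratio of hypoxia to control was -0.43 in total RNA and 0.76 in large-polysome RNA. Of the 98 that lost, 81 (82.7%) were within 2-fold of control in total RNA and 14 at least 2-fold higher. Their median hypoxia ratio was 0.35 in total RNA and -0.91 in large-polysome RNA. The members were picked by the difference between these ratios, so their being apart is no finding.

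**Figure D1:**
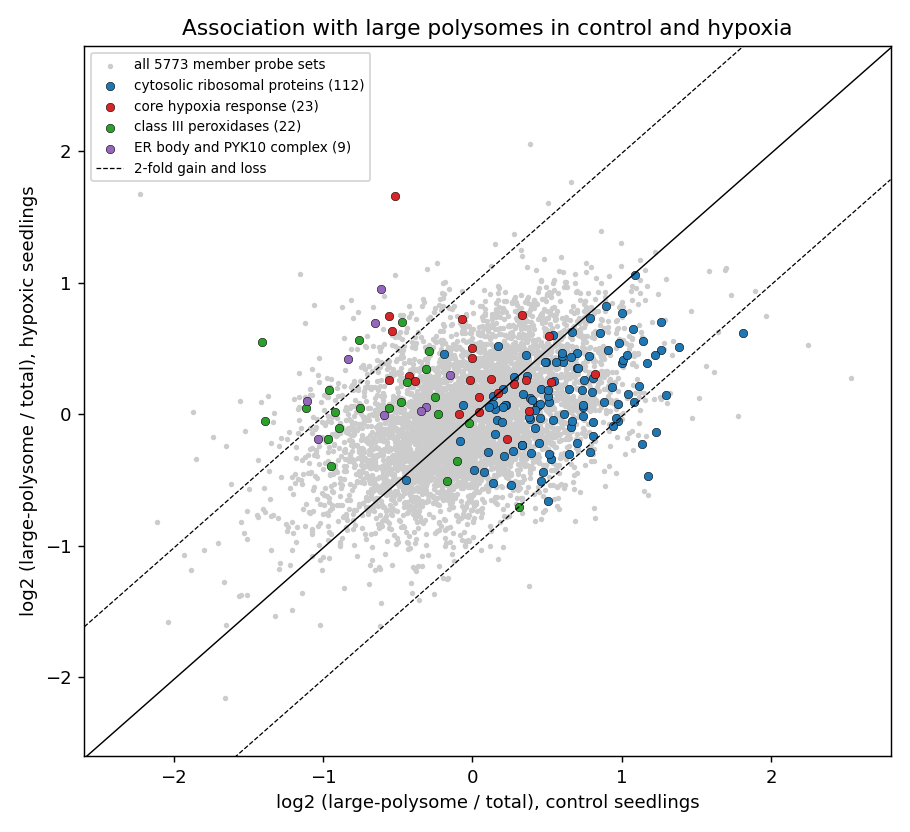
Log2 ratio of large-polysome to total RNA in control seedlings (horizontal) and hypoxic seedlings (vertical) for the 5773 member probe sets, 1 point each. The solid line marks the median change and the dashed lines 2-fold gain and loss. Cytosolic ribosomal protein probe sets lie mostly right of 0 and under the solid line, and class III peroxidase and ER body probe sets lie mostly left of 0 and above it.

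Probe error was estimated from the 30 genes with 2 member probe sets. Their changes differed by a median of 0.47 and by 1.02 at the 95th percentile, and in 11 of the 30 genes they had opposite signs. AT2G20740 gave the largest disagreement, with -0.44 and 0.82. AT4G17140 was called by 1 probe set at 1.05 and stood at 0.06 by the other, whereas the probe sets of AT2G35450 both gave -0.58. A single gene just past 2-fold can therefore lie within probe error, and the classes below are described by all their measured members. At the intensity threshold, the 3 members just inside were AT1G73740, AT5G35740 and AT4G20430, with changes of 0.71, -0.20 and -0.07. The 3 just outside were AT3G17380, AT5G14610 and MED9, with 0.45, 0.02 and -0.39.

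Of 42 classes of genes, 25 were assembled by locus code, because the annotation pairs probe sets with few descriptions, and 17 by gene symbol. One of them, the SR splicing factors, had no named probe set. A class describes its named and measured members only, since 8730 probe sets had no listed gene. All lists were chosen with earlier results of these data known, so a class share set beside that of all members is a description. Each pair of intensities below gives control first and hypoxia second.

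mRNAs for cytosolic ribosomal proteins, the structural proteins of the ribosome, stood lower in hypoxia in their association with large polysomes. The 112 members had a median change of -0.43, and 104 of them were below 0, against 2886 of 5773 members overall. At 1.5-fold, 40 had lost association (35.7%, against 9.91% of all members) and 1 had gained. At 2-fold, 9 had lost and 0 had gained. In control 108 of the 112 had more signal in large-polysome than in total RNA, with a median log2 ratio of 0.58, and in hypoxia 71 did, with a median of 0.09. Their median hypoxia ratio was -0.10 in total RNA and -0.53 in large-polysome RNA. Ribosomal proteins are encoded by small families of near-identical genes, so a probe set may also report a paralog.

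The small (40S) subunit had 40 members of 49 named, with a median of -0.52; 4 were above 0, and 18 had lost 1.5-fold. The large (60S) subunit had 72 of 86, with a median of -0.37; 4 were above 0, and 22 had lost 1.5-fold. The other 9 and 14 named probe sets were not above the threshold on every array.

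AT3G11250, which encodes the stalk protein P0, had intensities of 536.2 and 404.9 in total RNA, and on large polysomes 1258.4 and 369.2, a change of -1.35. The signal was more than double the total RNA signal in polysomes of control seedlings and below it in hypoxia. AT3G44590, encoding the acidic stalk protein P2, gave 2774.9 and 1417.8 in total RNA, and on large polysomes 6091.6 and 1212.4, a change of -1.34. AT1G01100, encoding the stalk protein P1, stood at -1.15. These 3 loci belong to the stalk of the large subunit, the site where elongation factors dock, and not every copy of the stalk genes was as low, since the P0 gene AT3G09200 stood at 0.02 and AT2G40010 at -0.03.

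For AT5G15520, encoding S19, the intensities were 547.8 and 968.6 in total RNA, and on large polysomes 1240.5 and 701.2, a change of -1.63. The mRNA was higher in hypoxia in total RNA and lower in large-polysome RNA. The other S19 genes AT3G02080 and AT5G61170 stood at -0.78 and -0.59. For AT1G15250, encoding L37, the total RNA signal was 298.9 and 680 and the large-polysome signal 1051.9 and 1043.5, a change of -1.18. Here the polysomal level was level between conditions while total RNA was higher in hypoxia.

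The remaining ribosomal protein genes at a 2-fold loss were AT4G10450 (L9) at -1.14, AT5G52650 (S10) at -1.06, AT5G02610 (L35) at -1.01 and AT4G15000 (L27) at -1.01. The 1 gain at 1.5-fold was AT5G20290, encoding S8. It had 15673 and 12543 in total RNA, and on large polysomes 13748 and 17265, a change of 0.67. It was 1 of 4 ribosomal protein members that had less signal in large-polysome than in total RNA of control seedlings.

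Nuclear genes for organelle ribosomes showed a similar pattern of values. All 9 members for mitochondrial ribosomal proteins were below 0, with a median of -0.55, and 4 had lost 1.5-fold (44.4%, against 9.91%). AT5G56940, encoding the mitochondrial S16-type protein, had 812.8 and 1071.7 in total RNA, and on large polysomes 1799.2 and 716.6, a change of -1.71. It was the fourth lowest member of all. AT5G09770, of the L17 type, stood at -0.90. The 10 members for chloroplast ribosomal proteins had a median of -0.38, with 8 below 0 and 3 past a 1.5-fold loss (30%, against 9.91%). AT2G43030, encoding chloroplast L3, had 7117.8 and 8176.7 in total RNA, and on large polysomes 7019.3 and 4193.3, a change of -0.93. In total RNA the chloroplast class was higher in hypoxia by a median log2 ratio of 0.36, and in large-polysome RNA it stood at -0.05.

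Proteins that build ribosomes in the nucleolus had a median of -0.36 over 19 members. Of these 6 were past a 1.5-fold loss (31.6%, against 9.91% of all members) and 0 past a gain (against 11%). AT5G60990, encoding a DEAD-box RNA helicase, had 626.6 and 745.2 in total RNA, and on large polysomes 1221 and 546.9, a change of -1.39. AT1G52930, encoding a Brix-domain protein of large subunit assembly, had 546.1 and 415.3 in total RNA, and on large polysomes 1222.3 and 370.7, a change of -1.31. Both mRNAs were higher in polysomes than in total RNA of control seedlings and lower than it in hypoxia. The class was not uniform, since AT5G08420, encoding a KH-domain RNA-binding protein, stood at 0.58.

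Initiation factors had a median of -0.21 over 19 members. Of these 5 were past a 1.5-fold loss (26.3%, against 9.91% of all members) and 1 past a gain (5.26%, against 11%). AT5G44320, encoding subunit d of eIF3, the factor that holds the small subunit ready for mRNA, stood at -0.93, and AT1G66070, encoding subunit j of the same factor, at 0.70. The 3 elongation and release factor members stood at -0.59 for AT5G19510 and 0.53 for AT5G12110, which encode subunits of the exchange factor eEF1B, and at -0.56 for AT1G18070. The 17 aminoacyl-tRNA synthetases, which charge tRNAs, had a median of -0.18 with 15 below 0. A 1.5-fold loss was measured for 2 of them (11.8%), near the 9.91% of all members. The lowest was the leucyl-tRNA synthetase gene AT1G09620 at -0.79 and the highest AT4G39280, encoding a phenylalanyl-tRNA synthetase subunit, at 0.34.

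Counted together, the 8 classes of the translation apparatus held 189 members, 3.27% of all. They held 13 of the 98 members at a 2-fold loss (13.3%) and 0 of the 154 at a 2-fold gain. Their median log2 ratio of large-polysome to total RNA was 0.49 in control and 0.06 in hypoxia. All 8 class medians were below 0. Of the 13, 9 were cytosolic ribosomal, 1 mitochondrial ribosomal and 3 nucleolar. Chloroplast ribosomal proteins, initiation factors, elongation and release factors and tRNA synthetases held 0. With 1.7% of all members at a 2-fold loss, classes this small can hold 0 without differing from the rest. At 1.5-fold the shares that lost were 30%, 26.3%, 33.3% and 11.8% in that order, against 9.91% of all members. Initiation factors and tRNA synthetases, with medians of -0.21 and -0.18, stood no lower than the proteasome subunits, at -0.24.

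Chaperonins, the ring-shaped folding machines of cytosol and organelles, were also mostly lower. Of 11 members 10 were below 0, the median was -0.33, and 5 had lost 1.5-fold (45.5%, against 9.91% of all members). The 9 members above an intensity of 280 on every array had a median of -0.61. AT3G60210, encoding a chloroplast co-chaperonin of the GroES family, had 1294.8 and 2303.6 in total RNA, and on large polysomes 1934.3 and 1398, a change of -1.28. The total RNA signal was higher in hypoxia and the polysomal signal lower. AT3G18190 and AT5G26360, which encode subunits of the cytosolic CCT ring, stood at -0.81 and -0.75.

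**Figure D2:**
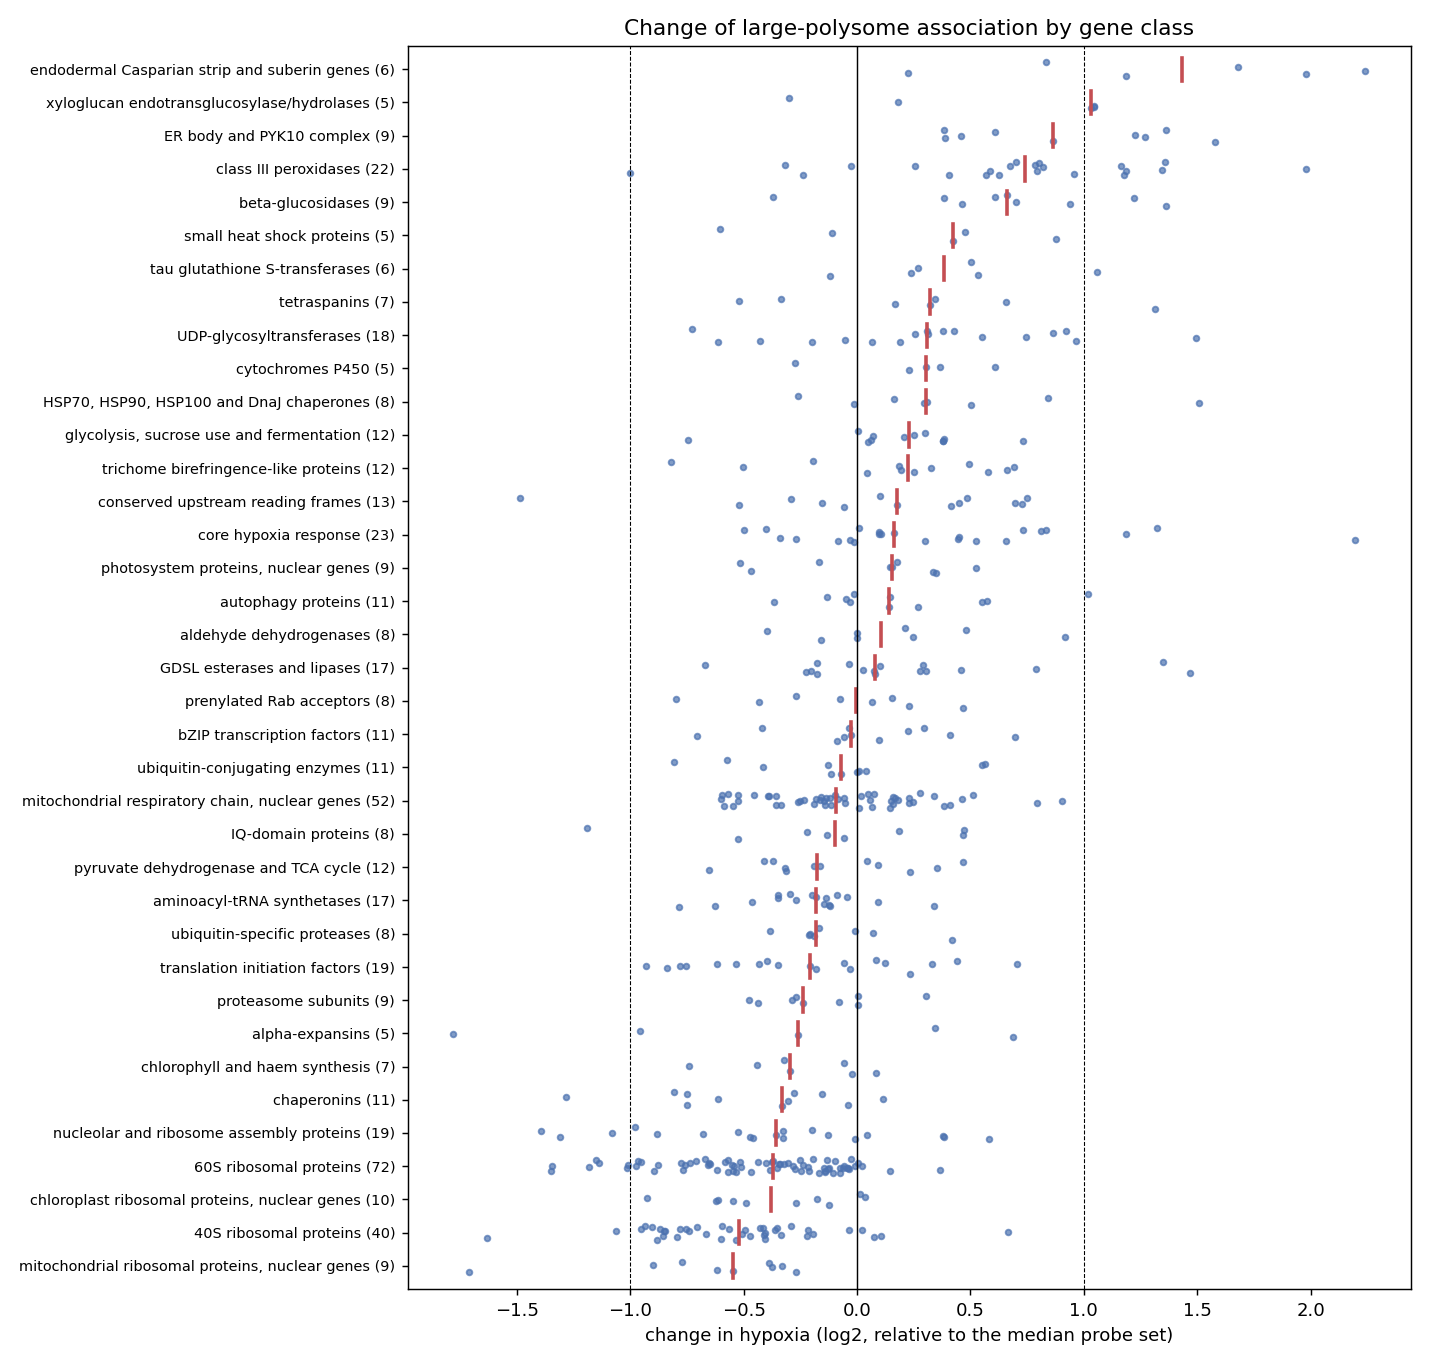
Change of association of each member probe set (points) by gene class, for classes of 5 or more members, with class medians as red bars and the number of members in parentheses. The horizontal axis is log2 relative to the median of all members, and dashed lines mark 2-fold. The mitochondrial ribosomal proteins have the lowest median at -0.55 and the endodermal genes the highest at 1.43.

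Other housekeeping classes had medians between -0.24 and -0.09. The 52 nuclear members of the mitochondrial respiratory chain had a median of -0.09, with 23 above 0. Of the 52, 2 were past a 1.5-fold gain (3.85%, against 11% of all members) and 3 past a loss (5.77%, against 9.91%). Their median log2 ratio of large-polysome to total RNA was 0.36 in control and 0.34 in hypoxia, so mRNAs of the respiratory complexes and of the mitochondrial ribosome, which serve the same organelle, had different values. The extremes were AT4G30010 at -0.60 and AT2G47690, encoding a subunit of complex I, at 0.91. Enzymes of the pyruvate dehydrogenase complex and the tricarboxylic acid cycle had a median of -0.17 over 12 members. A 1.5-fold loss was measured for 1 of them (8.33%, near the 9.91% of all members). The 9 proteasome subunits had a median of -0.24, none of them past 1.5-fold.

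Nuclear genes for photosystem and light-harvesting proteins had a median of 0.16 over 9 members, with 6 above 0 and none past 1.5-fold. LHCB4.1, LHCB4.2 and LHCB4.3, which encode the antenna protein CP29, stood at 0.33, 0.52 and 0.35, and PSBY and PSB27, encoding small photosystem II proteins, at -0.47 and -0.51. The 4 Calvin cycle members, PRK, SBPASE, RCA and the phosphoglycerate kinase gene AT1G56190, lay between 0.07 and 0.18. Enzymes of chlorophyll and haem synthesis had a median of -0.30 over 7 members, and HEME2, a uroporphyrinogen decarboxylase gene, was the 1 past a 1.5-fold loss, at -0.74. Its intensities were 847.2 and 497.1 in total RNA, and on large polysomes 1606.1 and 558.3. In polysomes of control seedlings it was nearly at double its total RNA signal, and in hypoxia the fractions were close.

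mRNAs of the core hypoxia response, genes that rise in low oxygen across plant tissues, had changes near or above that of the median member. The 23 members had a median change of 0.16, with 16 above 0, 7 past a 1.5-fold gain (30.4%, against 11% of all members), 3 past a 2-fold gain and 0 past a loss. In control 12 of 23 had a log2 ratio of large-polysome to total RNA above 0 and in hypoxia 22 did. All 23 were higher in hypoxia in both fractions, with median log2 ratios of 2.33 in total RNA and 2.67 in large-polysome RNA. Another 5 named genes of the list were not members. Of these AT5G10040, AT4G24110, AT3G10040 and CML38 were not above the threshold on at least 1 control array, and AT5G45960 was not above it on any array. The first 4 were higher in hypoxia in both fractions. In hypoxia AT3G10040 had less signal in large-polysome than in total RNA, 1802.4 against 2713.8. AT5G10040, AT4G24110 and CML38 had more in large-polysome RNA. The counts of gains and losses above do not cover these genes.

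AT3G10020, a hypoxia-responsive gene of unknown function, had 1147.4 and 2411.1 in total RNA, and on large polysomes 799.6 and 7611.6, a change of 2.20 or 4.58-fold. It was the third highest member of all, with less signal in polysomes than in total RNA in control and more in hypoxia. AT1G19530 had 1515.9 and 4571.4 in total RNA, and on large polysomes 1031.5 and 7681, a change of 1.32. AT3G23170 had 320.8 and 1689.3 in total RNA, and on large polysomes 220.8 and 2616.9, a change of 1.19. All 3 showed the same crossing of the fractions.

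Below the 2-fold line the class was graded. FHL stood at 0.83, AT4G17670 at 0.81, the pyruvate decarboxylase gene PDC2, which starts ethanolic fermentation, at 0.73 and the rhodanese-family gene AT2G17850 at 0.66. AT1G33055 rose from 1077.2 to 13577 in total RNA and from 1014 to 13578 in large-polysome RNA, with a change of 0.10. Its gain in total RNA was matched in polysomes, so its association stayed near the median member. The lowest values were those of AT4G10270, a wound-responsive family gene, at -0.50, AT4G27450 at -0.40, AT1G26270 at -0.34 and AT3G29970 at -0.27. AT4G10270 had 334.1 and 7598.2 in total RNA, and on large polysomes 589.7 and 9389.2, so it was rich in polysomes in both conditions.

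Glycolysis, sucrose use and fermentation had a median of 0.23 over 12 members, with 11 above 0, and the median was 0.08 after quantile normalization. PDC2 was the 1 member past a 1.5-fold gain, and the enolase-family gene ENOC at -0.74 was the 1 past a loss. Each was 8.33% of the class, where 11% of all members gained and 9.91% lost. The phosphofructokinase gene AT1G20950 and the pyruvate kinase gene AT5G56350 stood at 0.39 and 0.38. The log2 ratio of large-polysome to total RNA was above 0 in 3 of the 12 in control and in 10 in hypoxia.

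Heat-responsive chaperones varied. The 5 small heat shock proteins, which hold unfolded proteins in solution, ranged from -0.60 for AT5G51440 to 0.88 for AT1G54050. AT1G54050 had 214.4 and 3351.1 in total RNA, and on large polysomes 226.5 and 6438.8. AT5G51440 had 407.7 and 3070.7 in total RNA, and on large polysomes 863.4 and 4231.9. Both mRNAs were higher in hypoxia in each fraction, the first more so in polysomes and the second more so in total RNA. Another 5 named genes of this class were not above the threshold on every array. Of these, 4 were above it on both hypoxia arrays and not on both control arrays. All 4 were higher in hypoxia in both fractions, with more signal in large-polysome than in total RNA in hypoxia. The range above does not cover them. The 8 larger chaperones of the HSP70, HSP90, HSP100 and DnaJ families had a median of 0.30. The DnaJ gene AT2G20560 had 293.7 and 612.8 in total RNA, and on large polysomes 194.8 and 1144, a change of 1.51, and the HSP70 gene AT3G09440 stood at 0.84.

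mRNAs with conserved upstream reading frames, short frames in the leader that can hold back the main frame, had a median of 0.18 over 13 members, or 0.42 over the 11 above an intensity of 280 on every array, and spread widely. AT1G73600, encoding a phosphoethanolamine N-methyltransferase of phosphocholine synthesis, had 543 and 290.8 in total RNA, and on large polysomes 1503.3 and 284.7, a change of -1.48. Its polysomal signal was well above total RNA in control and level with it in hypoxia. Above a 1.5-fold gain stood AT5G45430 at 0.75, AT5G01710 at 0.73 and the bZIP factor gene BZIP53 at 0.70. BZIP53 had 2017 and 1507.1 in total RNA, and on large polysomes 918.9 and 1100.8, so it remained lower in polysomes than in total RNA in both conditions.

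**Figure D3:**
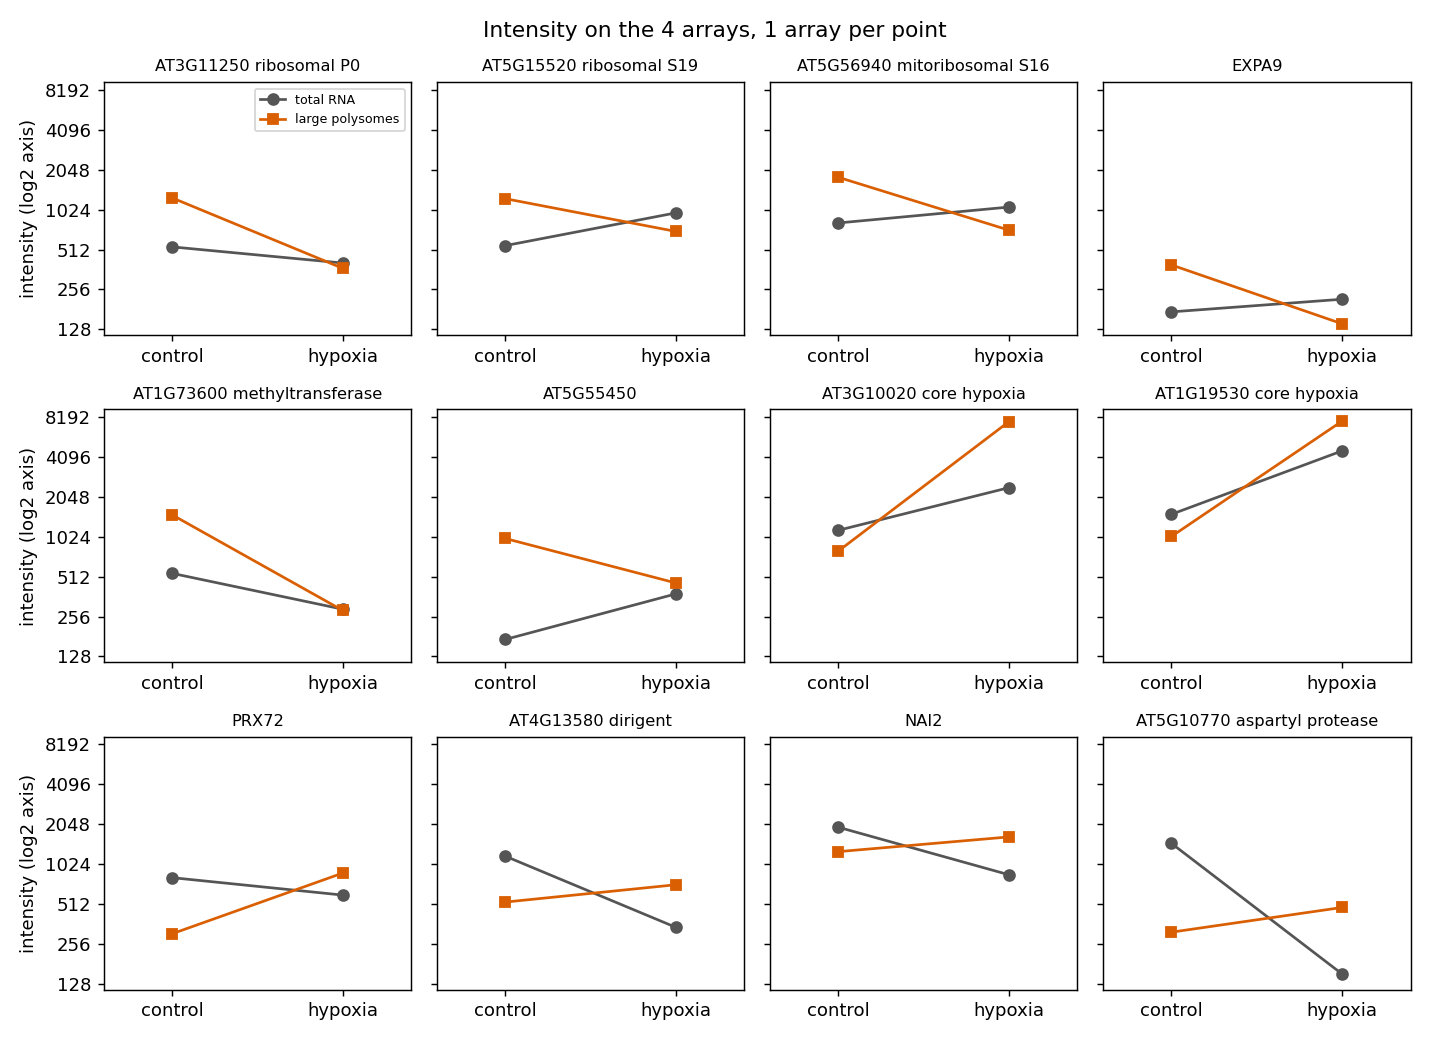
Intensity of 12 genes on the 4 arrays, on a log2 axis, with total RNA as circles and large-polysome RNA as squares. Each point is 1 array and lines join the conditions of a fraction. The first 6 genes lost association and the last 6 gained it, and in every panel the lines cross or meet except for AT5G55450, where polysomal signal stays above total RNA.

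The highest class medians among classes of 5 or more members were those of endodermal genes (1.43), xyloglucan endotransglucosylase/hydrolases (1.03), ER body genes (0.86), class III peroxidases (0.74) and beta-glucosidases (0.66). All but the peroxidase list were drawn up after values had been seen. The peroxidase list too was chosen with earlier results of these data known, so its shares are a description. The class III peroxidases, secreted enzymes that cross-link lignin and wall proteins, had a median of 0.74 over 22 members of 55 named; 18 were above 0. Of the 22, 14 had gained 1.5-fold (63.6%, against 11%) and 6 had gained 2-fold (27.3%, against 2.67%), and AT1G49570, just past the line, was the 1 at a 2-fold loss. In control 1 of the 22 had more signal in large-polysome than in total RNA, and in hypoxia 14 did. Their median hypoxia ratio was -0.34 in total RNA and -0.09 in large-polysome RNA. These medians leave out the 33 named peroxidases that were not members. Of those, 17 were not above the threshold on any array, 10 were above it on both control arrays and not on both hypoxia arrays, and 2 the other way round. Among the 10, chosen here after their values were seen, AT5G19890 had 2375 and 128.4 in total RNA and AT1G34510 had 928.3 and 5.7, so the class median in total RNA does not cover the genes that were lowest in hypoxia.

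AT5G66390, known as PRX72 and involved in lignin formation, had 807.9 and 596.5 in total RNA, and on large polysomes 304.1 and 874.9, a change of 1.98. Its polysomal signal was below total RNA in control and above it in hypoxia. The peroxidase gene AT4G26010 had 2634.7 and 849.9 in total RNA, and on large polysomes 1004.3 and 819.9, a change of 1.36. Here total RNA was lower in hypoxia and the polysomal signal differed less. Prx37 had 822.7 and 1261.7 in total RNA, and on large polysomes 485.1 and 1869.2, a change of 1.35, with higher signal in hypoxia in both fractions.

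The endodermis is the root cell layer that seals the inner tissues with the Casparian strip and suberin. A list of its barrier genes, drawn up after the values had been seen, had 6 members with a median of 1.43, all above 0, and 4 had gained 2-fold. AT4G13580, a dirigent protein gene, had 1174.6 and 340.3 in total RNA, and on large polysomes 528.1 and 714, a change of 2.24 or 4.72-fold, the second highest of all members. AT1G61590, a receptor-like kinase gene of the Casparian strip pathway, had 637.8 and 685 in total RNA, and on large polysomes 216.4 and 735.2, a change of 1.68. Total RNA of the first was lower in hypoxia, and that of the second was level. The other members were PRX72, which is also counted among the peroxidases, the peroxidase gene AT4G11290 at 1.19, the dirigent gene AT2G39430 at 0.83 and the receptor kinase gene GSO1 at 0.23.

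The ER body is a compartment of Brassicaceae that stores beta-glucosidases such as PYK10 for defence. Its list, also drawn up after the values had been seen, had 9 members, all above 0, with a median of 0.86, and 4 had gained 2-fold. NAI2, which is needed to form the compartment, had 1941.8 and 848.9 in total RNA, and on large polysomes 1269.9 and 1640.6, a change of 1.58. The TRAF-like gene AT5G26280 had 3159.4 and 1965.5 in total RNA, and on large polysomes 1775.1 and 2631, a change of 1.27. In both, the signal was lower in hypoxia in total RNA and higher in large-polysome RNA. The class medians of the hypoxia ratio were -0.72 in total RNA and 0.37 in large-polysome RNA, and all 9 members were below 0 in total RNA.

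Beta-glucosidases as a family overlap this list. They had 9 members with a median of 0.66, 8 above 0 and 6 past a 1.5-fold gain. BGLU46, whose product acts on monolignol glucosides, had 559.1 and 512.3 in total RNA, and on large polysomes 249 and 525.7, a change of 1.22. Its total RNA was nearly level while its polysomal signal was higher in hypoxia. BGLU19 stood at 1.36 and BGLU44 at -0.37.

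The peroxidase, endodermal, ER body and beta-glucosidase classes together held 41 different members, 0.71% of all. Of the 41, 13 had gained 2-fold and 27 had gained 1.5-fold. Since 3 of these 4 lists were drawn up from the same values, these counts are a description and are not read against the share over all members. In whole seedlings, fewer cells of a type and less RNA per cell cannot be told apart. Of 16 cell type markers on the list, 3 had a named probe set, all of root cells: PYK10, EXPA18 and EXPA7. Their summed intensity was 20421 and 14513 in total RNA, and on large polysomes 13423 and 14500, and none was at 0. Most of this sum was PYK10, which is itself in the ER body class and had 19221 and 14174 in total RNA. EXPA18 had 860.1 and 243.5 in total RNA and EXPA7 had 340 and 95.6, so both root hair markers were lower in hypoxia by a larger factor. PYK10 and EXPA18 had changes of 0.61 and 0.69. Endodermal, leaf and seed markers had no named probe set, and the part of cell makeup in these results was not tested.

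**Figure D4:**
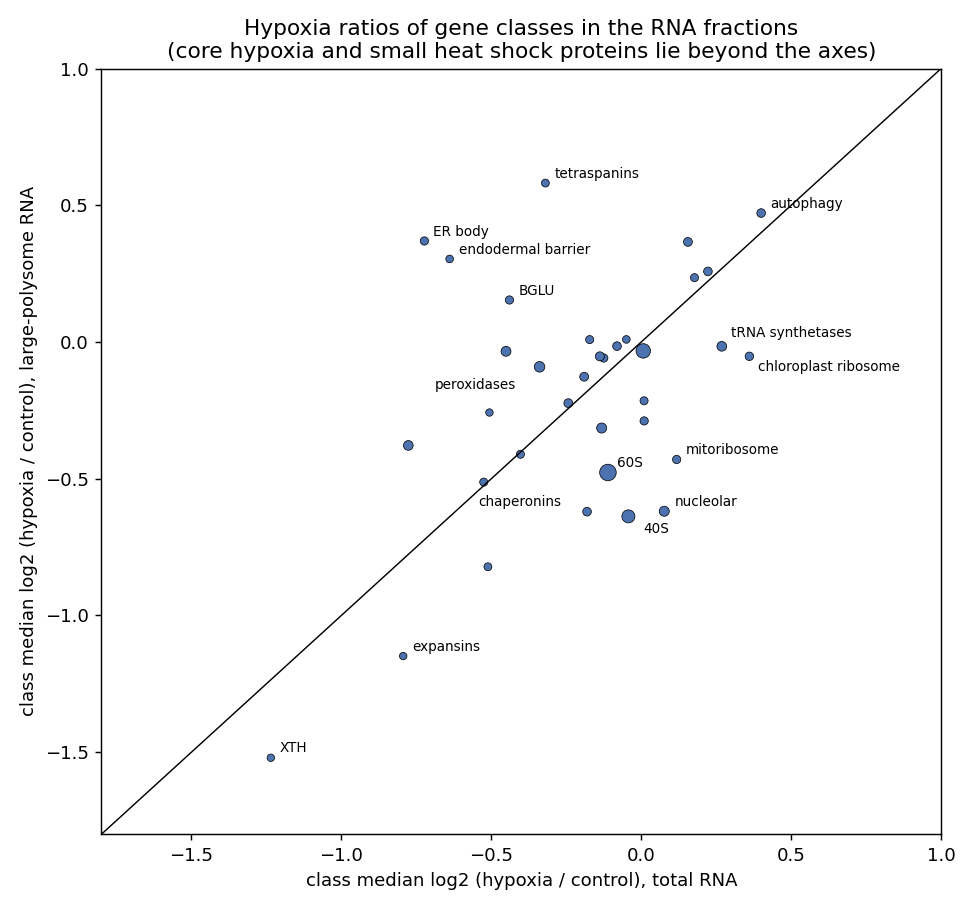
Median log2 ratio of hypoxia to control of each gene class in total RNA (horizontal) and in large-polysome RNA (vertical), for classes of 5 or more members, with larger points for larger classes and the line of equal ratios. Cytosolic ribosomal protein, nucleolar and chaperonin classes lie under the line, with total RNA medians between -0.18 and 0.08, and chloroplast ribosomal proteins lie under it at 0.36. The ER body and endodermal classes lie above it, at -0.72 and -0.64 in total RNA, and on large polysomes 0.37 and 0.30. The xyloglucan enzymes lie under it, at -1.24 in total RNA and -1.52 on large polysomes, although their median change was 1.03. Each axis shows a separate median over the class, so the distance from the line need not equal the median change.

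Genes that loosen the wall went different ways. Among the 5 xyloglucan endotransglucosylase/hydrolases, which cut and rejoin xyloglucan and had a median of 1.03, or 0.60 over the 6 above an intensity of 70, XTH18, EXGT-A3 and XTH19 stood at 1.05, 1.04 and 1.03, XTH16 at 0.18 and XTH32 at -0.30. XTH18 had 4363.7 and 3761.8 in total RNA, and on large polysomes 2519.6 and 4432.8. XTH19, its neighbour on chromosome 4, had 3363.9 and 567.8 in total RNA, and on large polysomes 2059.7 and 702.7. The changes were alike while the levels in hypoxia were not, and the 2 genes are close relatives whose probes may share signal. Of 5 alpha-expansins, which loosen walls at low pH, EXPA9 stood at -1.78, EXPA15 at -0.96, EXPA4 at -0.26, EXPA8 at 0.35 and EXPA18 at 0.69. EXPA9 had 173.1 and 215.7 in total RNA, and on large polysomes 391.6 and 140.6, the second lowest change of all, and its lowest signal was just above the threshold of 140.

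The highest single member was AT5G10770, an aspartyl protease family gene. It had 1465.9 and 150.9 in total RNA, and on large polysomes 312.9 and 481.1, a change of 3.92 or 15.1-fold. Most of this value came from total RNA, which was low in hypoxia, close to the threshold. The next members outside the classes above were AT1G60200 at 1.91, AT1G23120, a gene of the major latex protein family, at 1.91, the proline-rich protein gene AT5G09480 at 1.83, the hydrolase gene AT2G39400 at 1.70 and the thaumatin-family gene AT5G40020 at 1.69. LEA4-5, encoding a late embryogenesis abundant protein that protects cells from drying, had 163.4 and 147.1 in total RNA, and on large polysomes 213.2 and 610.9, a change of 1.69. AT5G03380, encoding a protein with a heavy-metal-associated domain, had 1036.9 and 1554 in total RNA, and on large polysomes 725.4 and 3243.8, a change of 1.59. In both, the high value was that of large polysomes in hypoxia. AT1G66800 at 1.58 and AT1G60610 at 1.55 closed the 15 highest.

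The lowest member was AT5G55450, a lipid transfer protein family gene, with 171.8 and 379.9 in total RNA, and on large polysomes 995.6 and 459, a change of -2.25. Its polysomal signal was far above total RNA in control and moderately above it in hypoxia. The adjacent genes AT3G16660 and AT3G16670, which encode Ole e 1 family proteins, stood at -1.77 and -1.71. AT4G01810, a Sec23-like gene of vesicle transport, had 546.6 and 751.8 in total RNA, and on large polysomes 712.3 and 304.4, a change of -1.67. AT4G39550, a kelch-repeat gene, had 242.1 and 796.8 in total RNA, and on large polysomes 427.3 and 460.2, a change of -1.60. The polysomal signal of the first was lower in hypoxia, and that of the second was nearly level while total RNA was higher. AT1G80130, a tetratricopeptide-repeat gene, had 1113.1 and 280.1 in total RNA, and on large polysomes 3186.3 and 305, a change of -1.38, and was lower in hypoxia in both fractions. AT3G51010 at -1.51, AT5G52550 at -1.48 and AT4G14920 at -1.42 completed the 15 lowest with those given above.

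Shorter genes spread more. In the fifth of members with the shortest gene span, 165 to 1588 bp, the SD of the change was 0.55, and 3.98% gained and 3.12% lost 2-fold. In the fifth with the longest span, 3502 bp and over, the SD was 0.44, with 1.99% gaining and 0.95% losing 2-fold. The 5 groups by span had medians between -0.03 and 0.03, and 5 groups of equal size by mean signal had medians between -0.02 and 0.02. The medians by chromosome lay between -0.03 and 0.02.

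Among 1418 pairs of members whose genes are neighbours in the annotation, 3 pairs gained 2-fold together, 1 lost together and 2 went opposite ways. At least 1 gene gained 2-fold in 64 pairs and at least 1 lost in 49, where 2.67% of all members gained and 1.7% lost. How many pairs would be called together without a link between neighbours was not computed, so these few pairs are a description. Besides XTH18 and XTH19, the pairs that gained were AT1G19530 with AT1G19540, at 1.32 and 1.30, and the major latex protein family genes AT3G26450 and AT3G26460, at 1.14 and 1.20. The pair that lost was AT3G16660 with AT3G16670. Opposite ways went AT1G23120 and AT1G23130, at 1.91 and -1.11, and AT4G15000 and AT4G15010, at -1.01 and 1.28. These pairs were picked after their values were seen, and tandem copies of a family can share probe signal.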

How the data were processed

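Total RNA and large-polysome RNA of control and hypoxic seedlings were each measured on 1 array. The deposited data were 1 linear intensity per probe set and array, scaled by the authors to a mean of 500 between the 2nd and 98th percentiles on every array, as far as the values show; which software summarised the probes, and with what background correction, is not given in the sources used here. Per the file headers, the arrays were ATH1 chips processed with one protocol, with 2 scans for total RNA in hypoxia and 1 for the rest. Gene names came from the platform annotation, and symbols from the RefSeq annotation of assembly TAIR10.1, used for names, gene span and order only. The annotation listed 1 gene for 13513 of 22746 probe sets other than controls, several for 503 and none for 8730.

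Python 3.11.15, numpy 2.4.6, pandas 2.3.3, scipy 1.17.1, statsmodels 0.14.6 and matplotlib 3.10.9 were used. Log2 values had no pseudocount. Calls were made at 2-fold and 1.5-fold from the median of the members; the calculation was tested on simulated data. With 1 array per group there was no test, and the number of arrays limits the precision. The members and lists were chosen with earlier results of these data known, and of 42 lists 20 were drawn up after values had been seen. The locus codes of the lists were written from general knowledge of the gene families. Named were the 15 highest and 15 lowest members, in each list the 3 highest and 3 lowest or all of 6 or fewer, any core hypoxia or ribosomal protein member, probe set pairs that differed most and least, and the 3 members on each side of the threshold. Protein length and promoter motifs were not analysed here, and no sequences are given.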

Additional observations from a re-analysis of the deposited data

How the results depend on the processing

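The counts of members that gained and lost 2-fold, 154 and 98, were 78 and 53 of 3761 at an intensity threshold of 280, 258 and 200 of 7650 at a threshold of 70, 100 and 59 on log2(value + 50), 325 and 207 of 11150 over all probe sets that were not controls, and 634 and 572 at 1.5-fold. Quantile normalization, no centring, intensity-dependent centring, 1 probe set per gene and leaving out ribosomal proteins, the last chosen after seeing the data, kept both counts within 1.5 times, at 148 to 157 gained and 90 to 101 lost. Of 287 class medians under 7 alternatives, 275 kept their sign and moved by less than the SD of 0.41 between probe sets of a gene. Another 11 changed sign and 1 moved further. The uncentred medians were chosen after seeing the data. Leaving out the centring shifts every class by the same -0.02, and 1 probe set per gene keeps 5743 of 5773 members, so both could hardly move a class. The limit of 0.41 is also larger than most class medians in size, so the 275 are a weak check. Of the 275, 18 moved by over 1.5 times, 8 of them by at least 0.1. At a threshold of 280 these were chlorophyll and haem synthesis (-0.30 to -0.19), chaperonins (-0.33 to -0.61), upstream reading frames (0.18 to 0.42), tau glutathione S-transferases (0.39 to 0.24) and aldehyde dehydrogenases (0.11 to 0.21). At a threshold of 70 they were UDP-glycosyltransferases (0.31 to 0.18) and tetraspanins (0.32 to 0.16), and with quantile normalization glycolysis (0.23 to 0.08). The sign changed at a threshold of 280 for alpha-expansins (0.04), serine carboxypeptidase-like proteins (-0.01), bZIP factors (0.16) and IQ-domain proteins (0.06). It changed at a threshold of 70 for histone H2B (0.04), alpha-expansins (0.03), bZIP factors (0.12) and prenylated Rab acceptors (0.10). It changed with quantile normalization for bZIP factors (0.00) and prenylated Rab acceptors (0.02), and on log2(value + 50) for serine carboxypeptidase-like proteins (-0.01). The median of the xyloglucan enzymes was 0.60 at a threshold of 70. The thresholds change which probe sets enter; other causes were not tested. No paired analysis was possible because each group had 1 array. Probe sets with no single listed gene, 5295 of them above the threshold, had a median of 0.03, and 161 (3.04%) gained and 89 (1.68%) lost 2-fold.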

Other observations

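Further gene families were grouped after values had been seen, the GDSL family by locus code and the others by symbol, and none was chosen independently of the data. Among enzymes that attach sugars or glutathione to small molecules, 18 UDP-glycosyltransferases had a median change of 0.31, with 13 above 0. A 1.5-fold gain was measured for 5 (27.8%, against 11% of all members) and a loss for 2 (11.1%, near the 9.91% of all). Over 31 members above an intensity of 70 the median was 0.18. UGT76B1, which acts on isoleucic and salicylic acid, had intensities of 729.2 and 339.7 in total RNA of control and hypoxia, and on large polysomes 460.3 and 597.3, a change of 1.49. The 6 tau glutathione S-transferases had a median of 0.39, or 0.24 over the 3 above an intensity of 280 on every array. GSTU22 had 346 and 1415.6 in total RNA, and on large polysomes 241 and 2030.5, a change of 1.06. GSTU25 had 166.5 and 2872 in total RNA, and on large polysomes 160.7 and 3971.2, a change of 0.54. Both were higher in hypoxia in each fraction. The 5 cytochromes P450 had a median of 0.30, with CYP71B34 highest at 0.61.

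Among membrane and wall proteins, 7 tetraspanins had a median of 0.32, or 0.16 over 9 above an intensity of 70, from TET5 at -0.52 to TET6 at 1.31. TET6 had 338.7 and 219.9 in total RNA, and on large polysomes 151.2 and 241.2. The 12 trichome birefringence-like probe sets, of a family that acetylates wall polysaccharides, had a median of 0.22, from TBL36 at -0.82 to TBL38 at 0.69. GDSL esterases and lipases had a median of 0.08 over 17 members of 68 named, with AT2G23540 at 1.47 and AT1G74460 at 1.35. The 8 prenylated Rab acceptors had a median of 0.00, with PRA1.B1 at -0.80, and 3 serine carboxypeptidase-like genes had 0.02.

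The 11 autophagy genes, which serve the recycling of cell contents, had a median of 0.14. ATG8H had 824.3 and 516.1 in total RNA, and on large polysomes 711 and 891.7, a change of 1.02, and ATG3 and ATG8E stood at 0.57 and 0.55. The 11 ubiquitin-conjugating enzymes had a median of -0.07, with UBC20 lowest at -0.81, and the 8 ubiquitin-specific proteases -0.18. The 8 aldehyde dehydrogenases had 0.11, with ALDH2C4 at 0.92. The 8 IQ-domain proteins had -0.09, with iqd21 at -1.19. The 11 bZIP factors had -0.03, with BZIP17 lowest at -0.71. Of 3 histone H2B genes HTB2 stood at 0.72, HTB4 at -0.02 and HTB11 at -0.21.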
